A study of Mus musculus with 8 samples.

Results

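The livers of mice on a western diet with sugar in the drinking water and CCl4 injections (the group WD+F+CCl4) were compared with those of control mice, over all of their captured cells. A cell was kept when its barcode held more than 500 detected genes and under 25% of its unique molecular identifiers (UMIs, the tags that count captured mRNA molecules) from mitochondrial genes. That left 48518 of the 80474 kept cells of the whole series, 33562 from 3 WD+F+CCl4 mice and 14956 from 2 control mice. The UMIs of all kept cells of a mouse were summed, so that each mouse was 1 replicate and the comparison covered every gene. All mice were wild-type C57BL/6. The WD+F+CCl4 mice ate a western diet with added cholesterol, drank a solution of fructose and glucose and received intraperitoneal CCl4 (carbon tetrachloride, a liver toxin), whereas the controls had a normal diet and drinking water. Diet, sugar and toxin were given together, so their parts in any difference cannot be told apart. The sources used here give neither sex nor age. The perfused livers were dissociated with enzymes, strained, freed of red blood cells and dead cells, and the single cells profiled by droplet sequencing of mRNA 3' ends (10x Genomics). The 3 mice of the other model of the series (HFD+F+CCl4, with a high-fat diet) entered the fits only to estimate the spread between mice.

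The liver is built of hepatocytes, bile duct cells, stellate cells and a sinusoidal endothelium, and holds resident macrophages (Kupffer cells), dendritic cells (DCs) and many lymphocytes. In steatohepatitis blood monocytes enter the liver and become macrophages, among them a Trem2-positive kind that takes up lipid and dying cells. Lipid that such a cell takes up is broken down in lysosomes by acid hydrolases. Cholesterol released there acts on a pair of opposed controls: oxidised sterols activate the nuclear receptor LXR, which turns on cholesterol export, while cholesterol itself holds back SREBP2, the transcription factor that turns on cholesterol synthesis.

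The kept cells carried 45765722 to 63878061 UMIs in the WD+F+CCl4 mice, and 35823037 and 5305581 in control mice 1 and 2. Control mouse 2 was the shallow library, with a median of 992.5 UMIs per cell against 2397 in control mouse 1 and between 3908 and 4278 in mice of the WD+F+CCl4 group. Mitochondrial genes gave 1.03% to 2.40% of UMIs in the WD+F+CCl4 mice, and 3.78% and 2.07% in the controls. Any pair of these libraries shared between 8 and 36 barcode sequences. For a class absent from the 4168 kept cells of control mouse 2, counting error alone allows a share of up to 0.072% (3 cells).

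The mix of cells differed between the groups. Cells were clustered and named from marker genes, so each class below is "-like" its name. Monocytes, patrolling monocytes, macrophages with Trem2 and Kupffer cells together made up 45.5%, 55.0% and 52.3% of the cells of the WD+F+CCl4 mice, and 4.34% and 4.75% of those of the controls. T/NK, B and plasma cells together made up 20.9%, 18.2% and 16.5% against 62.2% and 27.5%. Neither pair of ranges overlapped. Macrophages with Trem2 alone were 11.5%, 18.9% and 21.8% of cells against 0.519% and 0.336%, and patrolling monocytes, which crawl along vessel walls, were 9.83%, 15.2% and 15.1% against 0.287% and 0.240%. T/NK cells were 8.69%, 13.3% and 12.6% against 38.6% and 19.5%. B cells overlapped between the groups, at 12%, 4.83% and 3.79% against 23.2% and 6.79%. The clustering used all variable genes, including those that differed between the groups, so these shares are not independent of expression. With 3 mice against 2 there are 10 splits, the smallest possible exact permutation p is 0.1 (two-sided), and no share could pass 0.05.

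Several classes rested on single libraries. Endothelial cells were 12.2% of WD+F+CCl4 mouse 3 but 0.0750% and 0.254% of mice 1 and 2, against 4.62% and 1.97% of the controls. Kupffer cells, the resident macrophages, were 5.74% of WD+F+CCl4 mouse 3 and at most 0.284% of any other mouse compared here. A further pair of unnamed clusters, 13 and 14, both led by liver genes such as Mug1 and Mup11, was called liver RNA-marked. Cluster 14, mostly of control mouse 1, had hepatocyte as its best marker list but too low a share of liver-secreted genes for the name, and cluster 13, mostly of control mouse 2, had erythroid cell as its best list, against its leading genes. It made up 17.7% and 48.7% of the controls' cells and no cell of the WD+F+CCl4 mice. These barcodes also carried lymphocyte RNA: in the 2005 barcodes of cluster 13 in control mouse 2, summed T cell markers stood at 54.0% of the level in its T/NK cells. Summed erythroid markers in the liver RNA-marked barcodes were at 2999 and 8655 UMIs per 1000000 in the controls.

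**Figure D1:**
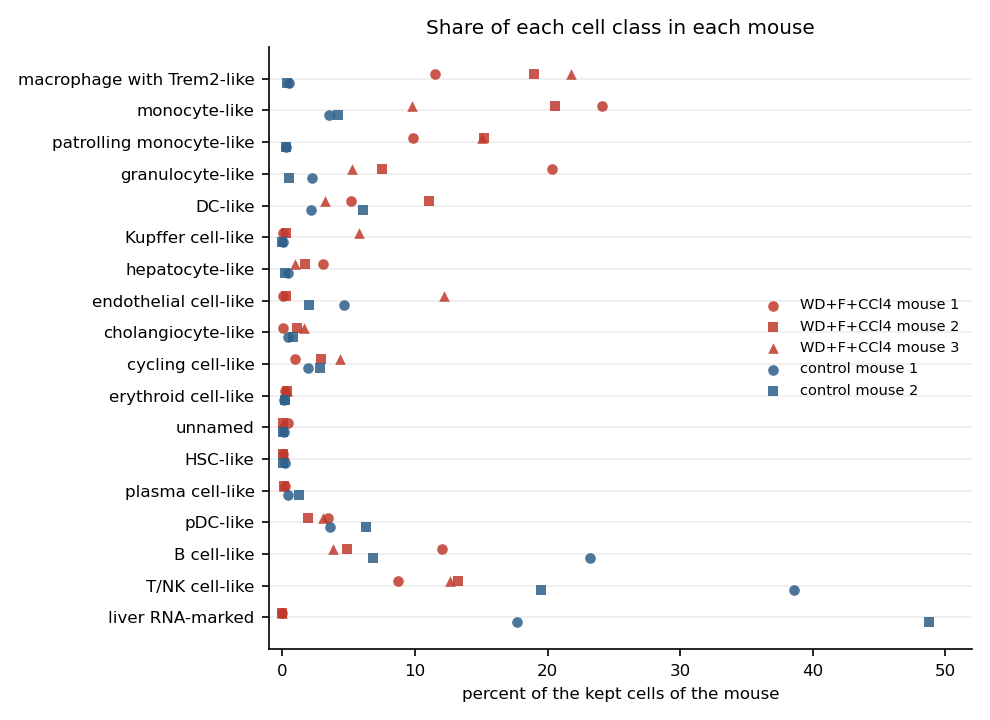
Share of each cell class (y axis) in percent of the kept cells of a mouse (x axis), with 1 point per mouse, red for the 3 WD+F+CCl4 mice and blue for the 2 controls. Macrophages with Trem2 were 11.5% to 21.8% of the WD+F+CCl4 mice and 0.519% and 0.336% of the controls, while the liver RNA-marked class lay at 0% in the WD+F+CCl4 mice and at 17.7% and 48.7% in the controls.

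Summed over all cells, macrophage genes were the largest rises and hepatocyte genes the largest falls. Levels are given as UMIs per 1000000 UMIs of the mouse (CPM), and fold changes come from edgeR's quasi-likelihood test on the summed counts, with Benjamini-Hochberg adjustment over all genes tested and a call at an adjusted p below 0.05. Of 19787 genes tested, 2171 were called higher in the WD+F+CCl4 mice (11%) and 2031 lower (10.3%). The levels of the 3 and the 2 mice did not overlap in 10611 genes, which is 53.6% of those tested and far more than passed the test. The counts moved with single mice. Without WD+F+CCl4 mouse 2, control mouse 1 or control mouse 2, 1336, 1246 and 1415 genes were called higher and 977, 1147 and 1246 lower, and without WD+F+CCl4 mouse 1, 1317 were lower. With library size alone as the scaling, the median of all genes shifted to -0.24 and the calls divided into 1628 higher and 2834 lower. With equal weight of the 7 classes the calls were 1059 higher and 1788 lower.

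Among the 10 largest rises, the 3 chains of complement C1q, a tagging protein that macrophages secrete, stood out by level. C1qb was at 789.7, 890.0 and 2031 CPM in the WD+F+CCl4 mice and at 15.8 and 10.9 CPM in the controls, a log2 fold change of 6.65 (SE 0.61, edgeR adjusted p = 0.00102). C1qa was at 365, 719 and 1579.8 CPM against 15.3 and 11.7 CPM, and C1qc at 351, 488 and 1460.2 CPM against 7.73 and 13.9 CPM. In each of the 3 genes WD+F+CCl4 mouse 3, the mouse with most Kupffer cells, was highest. The 10 were chosen among genes called and without overlap between the groups, so that separation is part of the choice.

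Trem2 (chr17:48346401-48354147, GRCm38), the lipid-sensing receptor of these macrophages, was at 259, 196 and 329 CPM against 3.71 and 3.77 CPM, a log2 fold change of 6.28 (SE 0.63, edgeR adjusted p = 0.00126). Ms4a7, a membrane protein of macrophages, had the largest log2 fold change of the 10, 7.06, from 1.76 and 1.13 CPM in the controls to 121, 190.2 and 264 CPM. C3ar1, the receptor for complement C3a, was at 233, 212 and 232 CPM against 3.27 and 1.32 CPM. Their separation too is part of the rule that chose them, which asked for a call and no overlap between the groups. Cd300e, which marks patrolling monocytes, was at 56.7, 94.3 and 101 CPM against 1.23 and 1.88 CPM. Saa3, an acute-phase protein that monocytes also make, was at 216, 110.0 and 101 CPM against 1.51 and 4.15 CPM. Without control mouse 1 its adjusted p was 0.0507.

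Mmp12 and Pf4 were called but varied most. Mmp12, the macrophage elastase, was at 7.20, 30.2 and 241 CPM in WD+F+CCl4 mice 1, 2 and 3 against 1.79 and 1.88 CPM, and Kupffer cells carried 53.8% of its UMIs in those mice. Pf4, a chemokine of platelets and macrophages, was at 61.5, 79.5 and 214 CPM against 1.34 and 3.96 CPM. Without either control mouse neither gene was called, with edgeR adjusted p of 0.152 to 0.170 for Mmp12 and 0.0596 to 0.0989 for Pf4.

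**Figure D2:**
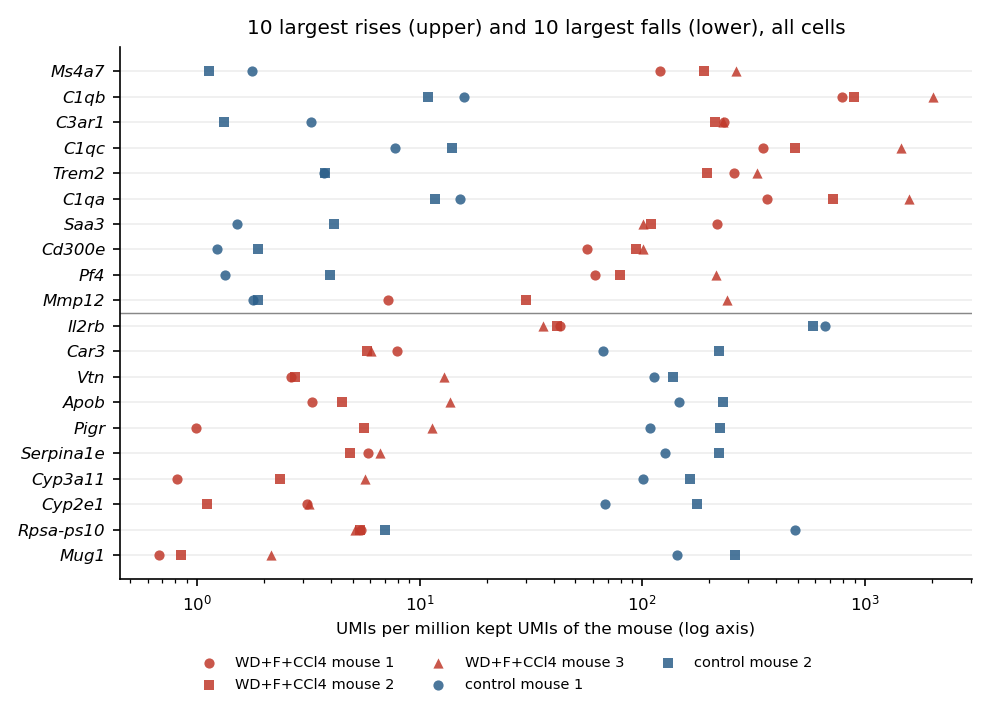
Levels of the 10 largest rises and the 10 largest falls over all cells (y axis), in CPM on a log axis (x axis), with 1 point per mouse, red for WD+F+CCl4 and blue for control. The 20 genes were chosen among those without overlap between the groups, and in Rpsa-ps10 control mouse 1 lay at 484 CPM and control mouse 2 at 6.97 CPM.

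Of the 10 largest falls, 8 were genes of hepatocytes or of the liver's epithelium. Mug1, a protease inhibitor that hepatocytes secrete, was at 0.673, 0.852 and 2.14 CPM in the WD+F+CCl4 mice and 143 and 263 CPM in the controls, and fell by 7.16 on the log2 scale (SE 0.71, edgeR adjusted p = 0.00130). Serpina1e, another secreted protease inhibitor, was at 5.85, 4.87 and 6.62 CPM against 127 and 221 CPM. Cyp2e1, which converts ethanol and CCl4, was at 3.11, 1.11 and 3.18 CPM against 68.1 and 175 CPM. Apob (the protein of very-low-density lipoprotein), Vtn (vitronectin), Car3 (carbonic anhydrase 3), Pigr (the receptor that carries IgA into bile) and Cyp3a11 (a drug-metabolising enzyme) fell by 4.53, 4.19, 4.18, 4.58 and 5.30. Serpina1e and Mug1 belong to families of near-identical copies, between which reads can be split. Without control mouse 1 the adjusted p of Vtn was 0.0503, and without any of 3 mice that of Pigr was 0.0615 to 0.0865 and without any of 4 that of Cyp3a11 was 0.0707 to 0.0920.

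Liver RNA in cells that do not make it, read here as free RNA, differed between the groups in the same direction. Genes of 28 proteins that the liver secretes gave 0.282%, 0.195% and 0.276% of all kept UMIs in the WD+F+CCl4 mice and 0.781% and 0.937% in the controls (exact permutation p = 0.1, two-sided, the smallest possible). In T/NK cells, which do not make these proteins, they gave 0.0487%, 0.0507% and 0.0704% against 0.338% and 0.452%, and in B cells 0.0740%, 0.0506% and 0.0736% against 0.550% and 0.499%. Neither pair of ranges overlapped. Over all cells, 18 of the 28 genes were called lower and 3 higher, beside 10.3% and 11% of all genes tested. Within B cells 22 of 27 were lower, beside 6.15% of all genes tested there. Of the hepatocyte markers 8 of 12 were lower over all cells, and albumin (Alb) itself was at 42.3, 81.8 and 286 CPM against 1823 and 1895 CPM, with an edgeR adjusted p of 0.0688 to 0.0812 without WD+F+CCl4 mouse 2 or either control. Hepatocyte-like cells were the more frequent in the WD+F+CCl4 mice, at 3.03%, 1.72% and 0.930% against 0.380% and 0.192%. In the controls 51.9% and 70.6% of these UMIs lay in liver RNA-marked barcodes. No liver gene's fall is therefore given here as a change in hepatocytes.

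The other 2 large falls were Il2rb and Rpsa-ps10. Il2rb (chr15:78479256-78495271, GRCm38), the receptor chain through which NK and T cells take IL-2 and IL-15, was at 42.7, 41.6 and 35.9 CPM against 662 and 584 CPM and fell by 3.77 (SE 0.45, edgeR adjusted p = 0.00206). Rpsa-ps10 is a pseudogene of the ribosomal protein gene Rpsa, with which it shares sequence. Its level was 5.45, 5.38 and 5.15 CPM against 484 CPM in control mouse 1 and 6.97 CPM in control mouse 2, and without control mouse 1 its adjusted p was 0.944. That call rested on 1 library.

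Genes of lymphocytes fell with the share of lymphocytes. T cell markers were lower for 6 of 10, NK cell markers for 5 of 8 and B cell markers for 4 of 8, and none of them was higher. Of all genes tested 10.3% were called lower. Trac, the constant chain of the T cell receptor, was at 28.1, 34.5 and 49.3 CPM against 319.8 and 295 CPM. Its edgeR adjusted p of 0.0137 became 0.0520 to 0.0670 without WD+F+CCl4 mouse 2 or control mouse 1. Cd3e, a chain of its signalling complex, was at 36.8, 62.8 and 73.6 CPM against 362 and 282 CPM and missed the call (adjusted p = 0.0542). Cxcr6, the homing receptor of liver-resident lymphocytes, was at 16.4, 24 and 26.9 CPM against 384 and 301 CPM. Icos, a costimulator, and Cd160, an NK receptor, fell by 3.35 and 3.43. Of 14 cytotoxic effectors 4 were lower and none higher. Over summed cells, fewer cells of a type and less RNA per cell cannot be told apart.

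The immunoglobulin genes were lower in all 3 called of 12 tested, beside 10.3% of all genes tested called lower. Igha, the heavy chain of IgA, was at 196, 51.4 and 129.8 CPM against 1226 and 1919 CPM, and Ighm, that of IgM, at 360.5, 309.9 and 276 CPM against 1203 and 1172 CPM. The groups were apart in both genes, as they were in 53.6% of all genes tested. Without 1 of 4 mice the edgeR adjusted p of Igha was 0.0602 to 0.0931, and without any 1 of the 5 mice that of Ighm was 0.0674 to 0.152, so neither call held.

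To hold the mix of cells equal, the same number of cells of each of 7 classes was taken from each of the 5 mice, and from HFD+F+CCl4 mouse 2, the only mouse of that model with enough cells of each class: 814 T/NK, 283 B, 236 DC, 192 plasmacytoid DC (pDC), 174 monocyte, 110 cycling and 22 granulocyte cells. Patrolling monocytes and macrophages with Trem2 had too few control cells and were left out, as were the liver classes. Of 15223 genes tested in these 1831 cells per mouse, 1415 were called higher (9.3%) and 1227 lower (8.06%). Without WD+F+CCl4 mouse 1 or 2 these counts were 889 or 775 higher and 696 or 503 lower. Of the 1994 genes called higher over all cells that could be tested here, 1121 (56.2%) were called higher again, and 1980 kept the sign. Of the 1835 called lower, 805 (43.9%) were called lower again. No gene was called in opposite directions.

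The difference in CPM of each gene was also divided into a part carried by the UMI shares of the clusters and a part carried by levels within clusters. Among genes at a mean of at least 50 CPM, the composition part had a median of 65.4% for the 873 called higher and of 64.5% for the 294 called lower. It was over 50% of the difference in 625 and 230 of them. For Il2rb it was 74% and for Cybb, the membrane subunit of the phagocyte NADPH oxidase, 85.9%. Hmgcs1, the HMG-CoA synthase of cholesterol synthesis, had a mean of 42.9 CPM and so lay outside that set. Its composition part was 0.277%. The part is a net sum over clusters, in which opposite shifts can cancel. The 2 parts depend on the clusters, and among the 5 mice clusters 13 and 14 held control cells only. Cluster 6, of T/NK cells and led by Cxcr6 and Il2rb, held 3122 and 711 control cells and 6, 11 and 9 WD+F+CCl4 cells. A difference between such clusters of 1 class counts as composition, so the part of Il2rb can hold a change within T/NK cells.

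**Figure D3:**
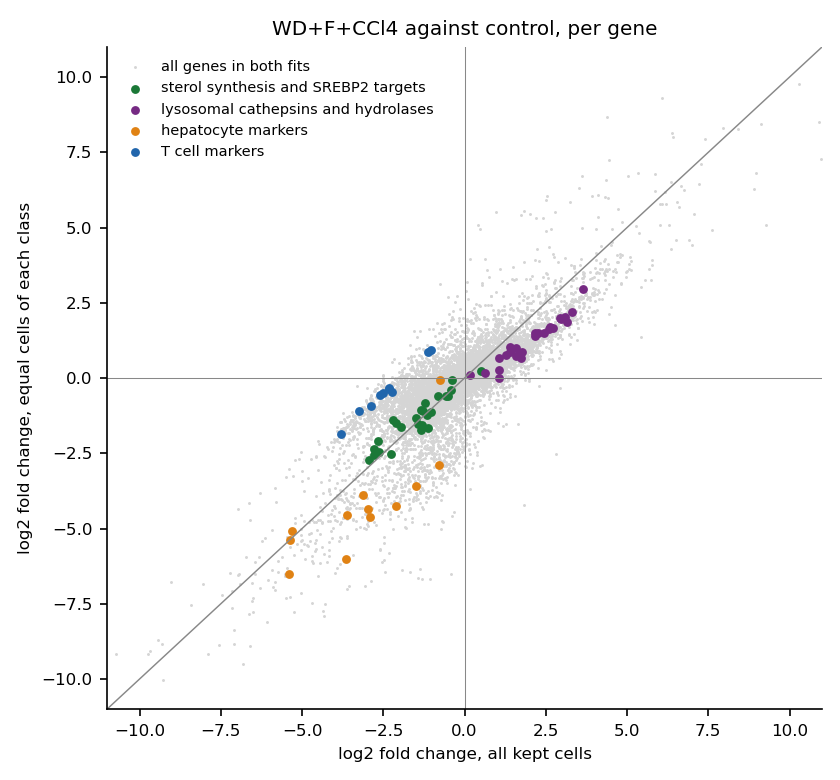
Log2 fold change of each gene over all kept cells (x axis) against that with equal cells of each class (y axis), in grey, with 4 gene lists in colour and the diagonal as a line. T cell markers lay closer to 0 with equal cells (median -0.48 against -2.42), the sterol genes stayed near the diagonal (median -1.40 against -1.35), and hepatocyte markers lay lower still (median -4.45 against -3.06).

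Within single classes fewer genes were called. The shares called higher and lower were 7.64% and 6.15% in B cells, 4.71% and 4.76% in DCs, 5.87% and 5.02% in T/NK cells and 11.2% and 5.6% in cycling cells. They were 5.41% and 4.01% in granulocytes, 4.8% and 4.88% in monocytes and 3.34% and 4.57% in pDCs. Different clusters held the classes in the 2 groups. Of the T/NK cells, a cluster led by Ccl5, Cd8a and Pdcd1 held 80.4%, 88.0% and 93.0% in the WD+F+CCl4 mice, and a cluster led by Cxcr6, Il2rb and Cd226 held 75.0% and 87.3% in the controls. Of the B cells, cluster 9 held 1411 of 1441, 464 of 476 and 424 of 444 in the WD+F+CCl4 mice, and cluster 11 held 2453 of 2506 and 239 of 283 in the controls. Of the monocytes, cluster 23 held 337 of 375 and 132 of 174 in the controls and 1 cell in the WD+F+CCl4 mice. The cycling class held myeloid cells in the WD+F+CCl4 mice, where 16 abundant myeloid genes gave 4.21% to 5.63% of its UMIs against 0.666% and 0.768% in the controls. Within DCs 6 of 7 markers of type 1 DCs were lower, and fewer such cells and lower levels per cell cannot be told apart there. Leaving out control mouse 1 lowered the calls most, from 1973 to 115 in cycling cells, 1060 to 89 in granulocytes, 1169 to 228 in monocytes, 1082 to 291 in DCs, 1410 to 473 in T/NK cells, 1341 to 638 in B cells and 752 to 414 in pDCs. Without WD+F+CCl4 mouse 2 the calls were 845 in B cells, 449 in DCs, 544 in T/NK cells, 1299 in cycling cells, 522 in granulocytes and 582 in monocytes. Without WD+F+CCl4 mouse 1 they were 889 in B cells, 583 in DCs and 825 in T/NK cells, and without control mouse 2 they were 437 in DCs, 786 in T/NK cells, 1172 in cycling cells and 715 in monocytes.

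Lysosomal genes rose over all cells. Of 27 cathepsins and other acid hydrolases 24 were called higher and none lower (median log2 fold change 1.78, against -0.06 over all genes tested), and of 25 lysosomal membrane and V-ATPase genes 20 were higher and none lower (median 1.29). With equal cells 21 of 27 and 16 of 25 were higher. Of all genes tested 11% were called higher over all cells and 9.3% with equal cells. Ctsb, the protease cathepsin B, was at 3809, 3048 and 4797 CPM in the WD+F+CCl4 mice and 369.7 and 527 CPM in the controls, a log2 fold change of 3.32 (SE 0.44, edgeR adjusted p = 0.00291). Ctss, the cathepsin that trims the chaperone of MHC class II, was at 2568, 2821 and 2684 CPM against 347 and 369.6 CPM (log2 fold change 3.10, adjusted p = 0.00061). Ctsb, Ctss, Cd68 (a lysosomal glycoprotein of macrophages) and Atp6v0c (the proteolipid ring of the proton pump) were called higher in all 7 classes. In T/NK cells of the WD+F+CCl4 mice, Cd68 was at 10.4% to 17.6% of its level in macrophages with Trem2, and Ctsb at 9.91% to 18.9%. After the step for macrophage RNA given below, none of these genes stayed above both controls in T/NK cells. In B cells only Ctss did. Lamp1, the main lysosomal membrane glycoprotein, was at 727, 654 and 823 CPM against 159 and 239 CPM. Ctsd, the aspartyl protease cathepsin D, was at 2407, 1425 and 2339 CPM against 290.1 and 319 CPM but was not called without either control mouse (adjusted p 0.0680 to 0.0683), and Laptm5, a lysosomal protein of blood cells, was not called without control mouse 2 (0.0570). Without WD+F+CCl4 mouse 1 or 3, 9 and 10 of the 25 membrane genes were called with equal cells.

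Psap, the precursor of the saposins that help hydrolases reach lipids, moved in opposite directions by class. It was at 5095, 3843 and 3871 CPM against 1182 and 1780.0 CPM over all cells (log2 fold change 1.75). In DCs it was at 2270.1, 1882 and 2392 CPM against 3565 and 4387 CPM and fell by 0.82 (adjusted p = 0.0204). In cycling cells it rose by 2.35, and in monocytes it stood at 6747, 5119.7 and 4582 CPM against 4267 and 4418 CPM and was not called.

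Many lysosomal genes carry the motif CACGTG, the core of the site that TFEB and related factors bind, near their start. It was searched on both strands in RefSeq promoter windows of 250 bases before to 50 after each start (GRCm38). Of the 52 lysosomal genes listed, 40 had a promoter in the table and 13 of those (32.5%) held the motif in at least 1 window, against 8.09% of all 27025 genes and 7.15% of all 32851 promoters. A match is a description of the letters, not of binding. The 3 lysosomal genes of highest level that hold it are shown, with the motif in capitals; the windows are chr7:142387778-142388077 on the minus strand for Ctsd, chr8:13158911-13159210 on the plus strand for Lamp1 and chr12:102439043-102439342 on the minus strand for Lgmn, the asparagine endopeptidase legumain.
Ctsd: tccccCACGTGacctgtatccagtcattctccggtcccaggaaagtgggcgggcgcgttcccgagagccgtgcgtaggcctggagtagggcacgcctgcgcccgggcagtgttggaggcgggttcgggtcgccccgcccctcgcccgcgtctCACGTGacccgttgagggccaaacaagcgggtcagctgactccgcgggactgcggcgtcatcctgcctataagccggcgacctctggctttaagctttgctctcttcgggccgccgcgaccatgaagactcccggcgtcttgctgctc
Lamp1: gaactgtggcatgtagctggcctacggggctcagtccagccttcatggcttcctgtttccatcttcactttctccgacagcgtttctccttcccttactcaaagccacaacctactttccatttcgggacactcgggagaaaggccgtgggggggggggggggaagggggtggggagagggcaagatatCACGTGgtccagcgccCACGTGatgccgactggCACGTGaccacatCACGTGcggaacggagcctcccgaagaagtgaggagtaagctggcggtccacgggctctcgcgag
Lgmn: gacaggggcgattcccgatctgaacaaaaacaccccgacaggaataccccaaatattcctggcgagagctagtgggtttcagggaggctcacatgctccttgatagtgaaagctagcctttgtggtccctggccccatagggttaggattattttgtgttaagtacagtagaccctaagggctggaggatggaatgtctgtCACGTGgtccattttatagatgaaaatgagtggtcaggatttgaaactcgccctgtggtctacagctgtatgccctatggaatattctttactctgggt
The window of Ctsd held 2 matches, that of Lamp1 4 and the one shown of Lgmn 1. Lgmn had 2 windows, of which the first that holds the motif is shown. Lgmn was at 627, 444 and 916 CPM in the WD+F+CCl4 mice against 49.8 and 70.7 CPM in the controls.

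Genes of lipid-laden macrophages rose with the macrophages. Of 21 such genes 17 were higher over all cells and 13 with equal cells, and none was lower (medians 3.28 and 2.26). Of all genes tested 11% and 9.3% were higher in these fits. Without control mouse 1, 10 were called over all cells. Lgals3, the lectin galectin-3, was at 1979, 1473 and 1453 CPM against 188 and 197 CPM (log2 fold change 3.28, SE 0.28, edgeR adjusted p = 0.000896). It was called higher in all 7 classes, but in T/NK and B cells it did not stay above both controls after the step for macrophage RNA given below. Tyrobp, the adaptor through which Trem2 signals, was at 3123, 2671 and 2208 CPM against 868 and 995 CPM. Lgals1, another galectin, was at 804, 623 and 761 CPM against 547 and 548 CPM and was not called. Plin2, which coats lipid droplets, was at 818, 507 and 624 CPM against 37.1 and 85.4 CPM and rose by 3.66. In DCs Plin2 was at 222, 219 and 195 CPM against 87.7 and 104 CPM (adjusted p = 0.00393). In the same class 0 of 7 markers of macrophages with Trem2 were called higher and 1 lower (median 0.99). Of 10 monocyte markers 4 were higher and 1 lower, beside 4.71% and 4.76% of all genes tested in DCs. The part of these marker sets in the rise of Plin2 was not tested. Of 24 genes of fatty acid handling 6 were higher and 2 lower over all cells, beside 11% and 10.3% of all genes tested. Fabp5, a fatty acid carrier of macrophages, was at 489, 227 and 626 CPM against 61.9 and 78.2 CPM.

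Of 15 LXR targets and genes of cholesterol efflux 9 were called higher and none lower over all cells (median 1.80). With equal cells 9 were higher and 2 lower (median 0.95). Of all genes tested 11% were higher and 10.3% lower over all cells, and 9.3% and 8.06% with equal cells. The 2 lower, near that share, were Apoc1 and Mylip. Apoe, the lipoprotein that carries exported cholesterol, was the most abundant, at 10183, 10307 and 16024 CPM against 1070.3 and 1101 CPM (log2 fold change 3.67, SE 0.57, edgeR adjusted p = 0.00499). Lpl, the lipase that frees fatty acids from lipoproteins, was at 518, 555 and 870.1 CPM against 44.2 and 42.2 CPM. Abcg1, a cholesterol pump, was at 237, 227 and 249 CPM against 55.3 and 68 CPM, and rose in all 7 classes, by 1.10 in DCs to 2.04 in pDCs. Nr1h3, the receptor LXR-alpha itself, was at 109.5, 110.5 and 145 CPM against 7.15 and 16.8 CPM and was also called higher in all 7 classes. In T/NK and B cells it did not stay above both controls after the step for macrophage RNA given below. Abca1, the pump that loads apolipoprotein A-I, was at 119, 149 and 242 CPM against 34.1 and 40.7 CPM, but without either control mouse it was not called over all cells (adjusted p 0.0570 to 0.0670). Pltp, the phospholipid transfer protein, was at 150.1, 315 and 388 CPM against 49.5 and 91 CPM, with an adjusted p of 0.0990 without control mouse 1. Apoc1, a small apolipoprotein of macrophages and hepatocytes, was at 261, 174 and 424 CPM against 237 and 379 CPM and did not separate the groups. Its sign turned with library size as the scaling, without hepatocyte-like cells, with equal weight of classes and without WD+F+CCl4 mouse 3 or control mouse 1.

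Of 25 genes of sterol synthesis and other SREBP2 targets, 16 were called lower over all cells (median -1.35), beside 10.3% of all genes tested. With equal cells 18 were lower (median -1.40), beside 8.06%. The count did not leave 15 to 20 over all cells, or 16 to 19 with equal cells, under any alternative tried. Hmgcs1 (chr13:119690379-119708260, GRCm38) was at 23.2, 25.7 and 23.7 CPM in the WD+F+CCl4 mice and at 62.6 and 79.4 CPM in the controls and fell by 1.35 (SE 0.16, edgeR adjusted p = 0.00196). Sqle, the squalene epoxidase, was at 1.83, 2.97 and 3.60 CPM against 18.6 and 25.4 CPM and Idi1, the isomerase of isopentenyl pyrophosphate, at 5.11, 6.18 and 5.98 CPM against 31.8 and 52 CPM. The groups were apart in 24 of the 25 genes, against 53.6% of all genes tested. Sqle and Idi1 fell by 2.77 and 2.64, and Fdps, which builds farnesyl pyrophosphate, fell by 2.27. Srebf2, the gene of SREBP2, was at 49.5, 60.4 and 47.6 CPM against 93.2 and 123 CPM and was not called over all cells (adjusted p = 0.0522), but was lower with equal cells (0.0143). Ebp, a sterol isomerase, was the only one called higher, at 78.3, 79.4 and 73.6 CPM against 62.4 and 60.5 CPM, and without any of 4 mice it was not called (0.0524 to 0.158).

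The same genes were also tested within classes. They were lower for 20 of 24 tested in pDCs, 16 of 24 in DCs, 12 of 24 in T/NK cells, 11 of 19 in B cells, 11 of 24 in monocytes, 11 of 24 in cycling cells and 1 of 22 in granulocytes, and none was higher in any of the 7. In granulocytes that is near the 4.01% of all genes called lower there. In the other classes the share of all genes called lower was 4.57% in pDCs, 4.76% in DCs and 5.02% in T/NK cells. It was 6.15% in B cells, 4.88% in monocytes and 5.6% in cycling cells. Sc5d, a sterol desaturase, was lower in all 7. Hmgcs1 in pDCs was at 27.4, 45.8 and 30.2 CPM against 237 and 168 CPM (fell by 2.60, edgeR adjusted p = 5.3e-07), and in T/NK cells at 15.5, 17.3 and 12.6 CPM against 39.7 and 56 CPM. The summed level of the 25 genes was 503, 659 and 634 CPM in pDCs of the WD+F+CCl4 mice against 2159 and 1758 CPM in those of the controls. In DCs it was 414, 479.5 and 548 CPM against 1250.3 and 1381 CPM, in monocytes 327, 347 and 377 CPM against 741 and 781 CPM, in T/NK cells 334, 347 and 354 CPM against 678 and 801 CPM, and in B cells 324, 316 and 306 CPM against 567 and 683 CPM. These sums did not overlap between the groups in any of the 5 classes. Over all cells 53.6% of single genes tested did not overlap either. The pDCs and DCs of the controls had the highest levels of these 5 classes.

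**Figure D4:**
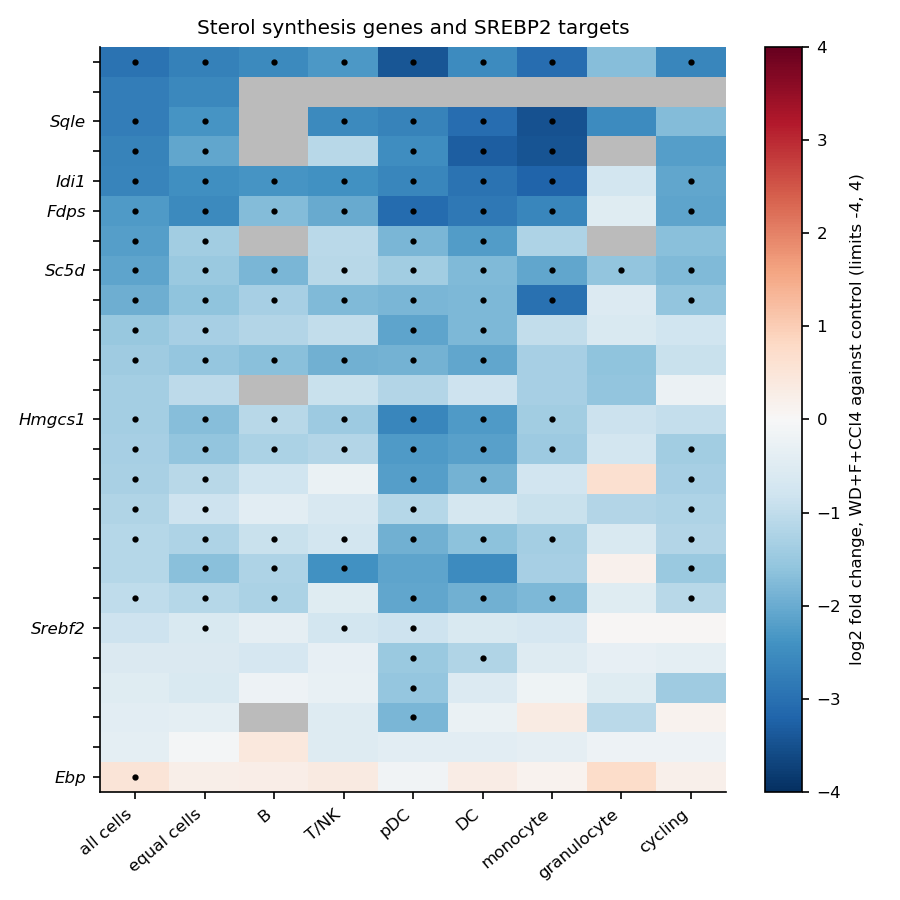
Log2 fold change of 25 sterol synthesis genes and SREBP2 targets (y axis) over all cells, with equal cells and within each of 7 classes (x axis), with blue for lower in WD+F+CCl4, red for higher, grey for not tested and a dot for an adjusted p below 0.05; only genes named in the text are labelled. Sc5d carries a dot in each of the 9 columns, and granulocytes carry 1 dot among 22 genes tested.

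Hepatocytes make sterols too, so the share of free liver RNA in the sterol genes was estimated, by a step chosen after the data were seen. In control mouse 1 the summed hepatocyte markers of T/NK cells stood at 3.31% of their level in hepatocyte-like cells. At the same share, the sterol genes of hepatocyte-like cells amount to 55.1 CPM of the 678 CPM in T/NK cells. In B cells the share was 5.39% and the amount 89.6 CPM of 567 CPM, and in pDCs 3.73% and 62.1 CPM of 2159 CPM. Less that amount, control mouse 1 was at 623, 478 and 2097 CPM in these classes, against 354, 324 and 659 CPM in the highest WD+F+CCl4 mouse. The hepatocyte-like cells of control mouse 1 were 41 barcodes with 3.42% of its UMIs of liver-secreted genes. Liver RNA-marked barcodes held 51.9% of those UMIs, and the source of the free RNA was not tested. Control mouse 2 had too few hepatocyte-like cells for the same measurement. Barcodes with up to 500 genes, which also held summed erythroid markers at 10157 to 315317 CPM in the 5 mice, carried 1161 and 1060.0 CPM of sterol genes in the controls and 363, 285 and 226 CPM in the WD+F+CCl4 mice. T/NK, B and monocyte-like cells of the controls lay below those barcodes and control pDCs and DCs above them. The part of free RNA, of liver or other cells, in the fall within these classes was not tested.

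SREBP2 binds sterol regulatory elements, whose letters TCACNCCAC were searched in the same windows after the values of these genes were seen. Of the 25 sterol genes 17 had a promoter in the table, and 1 of them (5.88%) held the motif, against 1.44% of all genes. It is that of Hmgcs1, chr13:119690101-119690400 on the plus strand, printed with the match in capitals.
Hmgcs1: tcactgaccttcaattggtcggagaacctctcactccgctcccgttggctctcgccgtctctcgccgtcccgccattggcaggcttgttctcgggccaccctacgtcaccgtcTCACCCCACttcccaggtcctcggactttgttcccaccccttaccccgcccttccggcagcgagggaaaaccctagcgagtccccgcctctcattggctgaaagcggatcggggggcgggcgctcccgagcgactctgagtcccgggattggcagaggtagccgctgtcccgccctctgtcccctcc

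Macrophage RNA was measured in the classes that should lack it. C1q chains are made by macrophages, yet in the WD+F+CCl4 mice they stood in T/NK cells at 9.19% to 15.2% of their level in macrophages with Trem2 of the same mouse, in B cells at 7.92% to 17.8% and in pDCs at 4.72% to 10.6%. In T/NK cells C1qb was at 255, 347 and 411 CPM against 9.98 and 7.66 CPM in the controls. Cybb showed the same shape: it was higher in T/NK cells, at 333, 589 and 238 CPM against 66.2 and 153 CPM, but in monocytes it was at 1840.0, 2107 and 2144 CPM against 2093 and 1874 CPM and was not called. Calls of macrophage genes in lymphocytes and pDCs were therefore set against this background, by a step chosen after the data were seen. It covered listed genes at 50 CPM or more in macrophages with Trem2 of each WD+F+CCl4 mouse. The highest C1q share of the mouse in the class was taken off each gene's level. Nothing was taken off the controls, so the step could only lower the number of genes above them.

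Of 21 hydrolases covered, 17 were above both controls in T/NK cells of every WD+F+CCl4 mouse, and none was left after that step. How much of this loss the step itself sets was not tested. Over all cells 53.6% of all genes tested did not overlap between the groups, in either direction. In B cells 19 hydrolases were above both controls and 3 were left. In pDCs 10 of 17 were left. Of the 13 LXR targets covered, 2 of 8 above both controls were left in T/NK cells, 3 of 9 in B cells and 4 of 7 in pDCs. Abcg1 was among those left in all 3 classes. Its level in T/NK cells was 33.9% to 45.1% of that in macrophages with Trem2, in B cells 42.7% to 46.6% and in pDCs 55.0% to 62.7%, above every C1q share. In T/NK cells it was at 108, 135 and 142 CPM against 53.3 and 65.2 CPM, and less the C1q share at 77.0, 87.3 and 107 CPM. Abca1 was left in B cells and pDCs, and Nr1h3 in pDCs only. The step takes off RNA only in the proportions found in macrophages with Trem2. Hp, haptoglobin, was also left, at 126%, 204% and 136% of the macrophage level in T/NK cells and 228%, 186% and 161% in B cells. The part of free RNA of other cells in what was left was not tested. The reverse held for lymphocyte RNA in the controls. Summed T cell markers in their DCs were 315 and 672 CPM against 95.5, 61.0 and 66.0 CPM in the WD+F+CCl4 mice, and in their monocytes 110.1 and 393 CPM against 17.7, 22.1 and 18.6 CPM. Within B cells 8 of 9 T cell markers were called lower, within pDCs 8 of 10, but within T/NK cells 1 of 10. Of all genes tested 6.15%, 4.57% and 5.02% were lower in these classes. The composition part and the equal-cell counts above still contain this shared RNA.

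**Figure D5:**
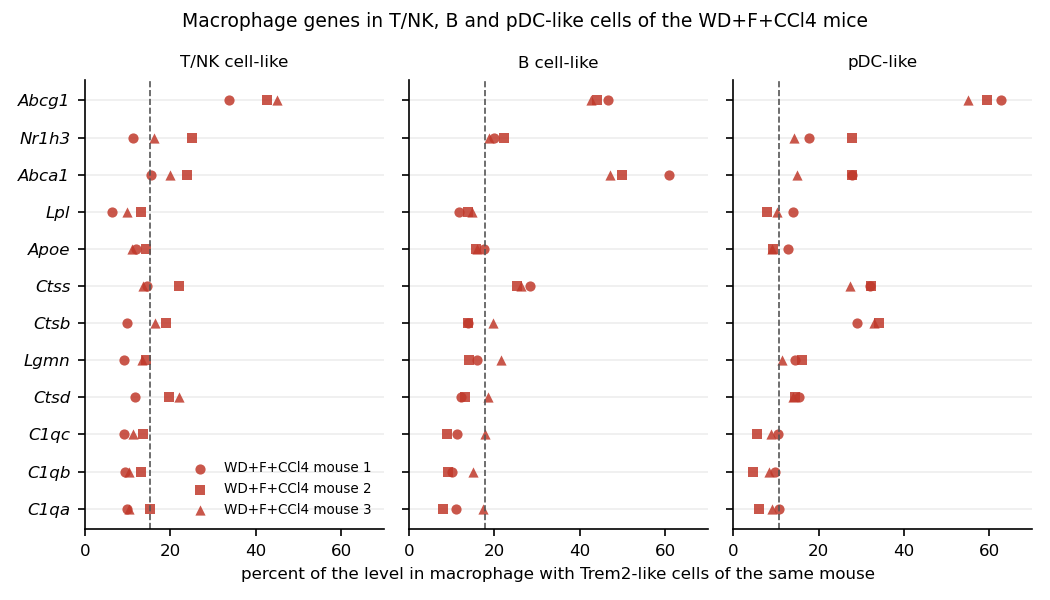
Level of 12 macrophage genes (y axis) in T/NK, B and pDC-like cells of the 3 WD+F+CCl4 mice, in percent of the level in macrophages with Trem2 of the same mouse (x axis), with 1 point per mouse and a dashed line at the highest C1q share. Abcg1 lies right of the line in all 3 classes, at 33.9% to 62.7%, while Lpl lies left of the line in T/NK and B cells.

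Iron, antioxidant and oxidase genes rose over all cells, where 11% of all genes tested were called higher and 10.3% lower. Of 14 genes of iron and heme handling 10 were higher and none lower. Ftl1, the ferritin light chain, was at 4836, 3322 and 4231 CPM against 860.1 and 797 CPM (log2 fold change 2.50, edgeR adjusted p = 0.00219), and Hmox1, which breaks down heme, at 236, 243 and 331 CPM against 15.7 and 14.5 CPM (log2 fold change 4.33). In monocytes Hmox1 was at 258, 315 and 299 CPM against 59.3 and 95.7 CPM (adjusted p = 0.00018). Fth1, the heavy chain, was at 5132, 4381 and 5126 CPM against 1695 and 1739.9 CPM and Hp, haptoglobin, at 684, 675 and 503 CPM against 110.4 and 118 CPM. Without either control mouse they were not called, with adjusted p of 0.0568 to 0.0720 and 0.0550 to 0.0582. Of 16 Nrf2 antioxidant genes 9 were higher and 1 lower, and the gene of Nrf2 itself, Nfe2l2, was at 256, 325 and 274 CPM against 66.3 and 75 CPM. Prdx1, a peroxidase, was at 937, 913 and 948 CPM against 397 and 390.2 CPM. Of 12 Rac and NADPH oxidase genes 8 were higher, with Cybb at 1314, 1396 and 1126 CPM against 289 and 324 CPM.

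Inflammatory and fibrogenic genes rose in part, beside 11% of all genes tested called higher and 10.3% lower. Of 28 inflammatory cytokines and chemokines 13 were higher and none lower, of 18 matrix proteases and inhibitors 9, of 16 fibrogenic growth factors and receptors 5, and of 17 complement genes 7 were higher and 1 lower. Of 20 collagens and other matrix genes 1 was higher, and stellate cells, the main source of liver collagen, were at most 0.158% of the cells of any of the 5 mice. Tgfbi, a matrix protein induced by TGF-beta, was at 489, 579 and 422 CPM against 56.4 and 74.8 CPM (log2 fold change 3.13, SE 0.29, edgeR adjusted p = 0.00104). Tgfb1, the fibrogenic cytokine, was at 336, 378 and 319.6 CPM against 119.9 and 93.7 CPM, and was called higher in 5 of 7 classes, in DCs at 231, 262 and 237 CPM against 117 and 76.4 CPM. Its receptor Tgfbr1 was at 96.1, 116 and 89.4 CPM against 47 and 48.1 CPM. Mmp14, a collagenase of the cell surface, was at 51.1, 125 and 133 CPM against 11.3 and 17.7 CPM, with an adjusted p of 0.0568 without control mouse 1. The groups were apart in each of these, as they were in 53.6% of all genes tested.

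Of the chemokines, Ccl6 was at 746, 577 and 835 CPM against 127 and 159 CPM and Ccl9 at 361, 291 and 243 CPM against 54 and 57.5 CPM, both being myeloid chemokines. Within granulocytes Ccl6 ran the other way, at 968, 753 and 954 CPM against 2345 and 2251 CPM, and fell by 1.11 (adjusted p = 0.0349). With equal weight of classes its log2 fold change was -0.24. Cx3cr1, the fractalkine receptor of patrolling monocytes and macrophages, was at 292, 654 and 463 CPM against 65.1 and 64.5 CPM over all cells, and in monocytes at 362, 809.7 and 641 CPM against 689 and 579 CPM with no call. Lcn2, the iron-binding lipocalin of granulocytes, was at 425, 211 and 117 CPM against 18.7 and 18.1 CPM, but was not called without either control (adjusted p 0.0960 to 0.103). Granulocytes carried 62% and 65.8% of its UMIs in the 2 groups.

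Other programmes had few calls or calls both ways, and several were near the 11% higher and 10.3% lower of all genes tested. Of 31 interferon-stimulated genes 7 were higher and 2 lower over all cells. Ifi27l2a, an interferon-induced mitochondrial protein, was at 2822, 1942 and 1019 CPM against 617 and 816 CPM, and without any of 4 mice it was not called (adjusted p 0.104 to 0.192). Of 11 MHC class II genes 2 were higher and 1 lower, of 15 heat shock chaperones 1 was higher, of 25 AP-1 and immediate early genes 2 were higher and 2 lower, and of 15 glycolysis enzymes 7 were higher and 1 lower. Pkm, the last kinase of glycolysis, was at 578, 601 and 568 CPM against 248 and 247 CPM (adjusted p 0.0582 without control mouse 2). Of 11 checkpoint genes 2 were higher and 2 lower, and of 14 chemokine receptors 3 were higher and 5 lower. Of 12 acute-phase genes 3 were higher and 2 lower.

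Of 6 genes that the study followed, 2 were called over all cells. The study chose them on these mice, so their direction is not independent evidence. It reported Jun, Spp1, Rac1 and Socs3 for monocytes, Kupffer cells and DCs, by protein staining and by knock-down in cultured THP1 cells. The values here are RNA over all cells. Spp1, osteopontin, was at 1009.8, 649 and 992 CPM against 138 and 223 CPM (log2 fold change 2.51, SE 0.49, edgeR adjusted p = 0.0113), and without either control mouse it was not called (0.0514 to 0.0813). The largest share of its UMIs lay in macrophages with Trem2 in the WD+F+CCl4 mice (44.6%) and in bile duct cells in the controls (77.8%). Rac1, a GTPase of the cell skeleton, was at 397, 431 and 409 CPM against 228 and 286 CPM (log2 fold change 0.89, adjusted p = 0.00732). Jun, a subunit of AP-1, was at 290.5, 234 and 453 CPM against 67.4 and 52.2 CPM with an adjusted p that rounded to 0.05 but did not fall below it, and WD+F+CCl4 mouse 3 was the highest of its group in each of the 7 classes. That library stood apart in immediate early and heat shock genes: clusters 8 and 10, led by Hspa1b, Fosb, Fos and the like, held 6.05% and 1.96% of its cells and at most 0.142% of those of mice 1 and 2, and cluster 8, named patrolling monocyte-like, held 709 of them. The part of this in the level of Jun was not tested. Socs3, an inhibitor of cytokine signals, was at 39.3, 61.1 and 62.7 CPM against 13.8 and 19.8 CPM (adjusted p = 0.0650).

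Fmnl1, a formin that builds actin filaments in blood cells, was at 192, 193 and 132 CPM against 159 and 207 CPM (log2 fold change 0.13, SE 0.30), and Myh9, non-muscle myosin IIA, at 399, 554 and 443 CPM against 459 and 479.9 CPM (log2 fold change 0.18, SE 0.22). The groups overlapped in both genes over all cells, and neither was called over all cells, with equal cells or within any of the 7 classes. Both signs turned with library size as the scaling and with equal weight of classes. The study followed both genes along a trajectory of monocytes, Kupffer cells and DCs, by protein staining in livers of mice and patients and by knock-down in culture. The 7 classes leave out macrophages with Trem2, patrolling monocytes and Kupffer cells, so those results were not tested here.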

How the data were processed

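The authors deposited 1 matrix of UMI counts for the 8 libraries together, with 55450 genes and 88581 barcodes. Per the file headers and the labels, reads were demultiplexed with bcl2fastq 2.20 and aligned to GRCm38 and counted with Cell Ranger; the header names version 4.0.0. The barcode suffix gave the mouse, matched to the labels. No value of the authors' own comparisons was used.

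A barcode was kept with over 500 detected genes and a mitochondrial UMI share below 25% (80474 in 8 libraries). Kept cells were scaled to 10000 UMIs, and 2000 variable genes and 30 principal components gave 28 Leiden clusters (scanpy 1.11.5, leidenalg 0.10.2, resolution 0.42). A cluster was named from its best marker list, and stayed unnamed with fewer than 3 markers detected, a mean z of the list under 0.5, leading genes of another class or, for hepatocytes, a liver-secreted share under 5%. Doublets were not removed; an alternative left out the barcodes ranked highest by a doublet score, 0.8% for each 1000 barcodes of a library.

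Counts were summed per mouse and tested with edgeR 4.0.16 (quasi-likelihood, TMM scaling, filterByExpr with a minimum count of 10; R 4.3.3) on all 8 mice for the sums over all cells, with the contrast WD+F+CCl4 minus control and Benjamini-Hochberg adjustment over all genes of a fit. Equal-cell and within-class fits used classes with at least 20 cells in each of the 5 mice compared. The equal-cell fit held these and HFD+F+CCl4 mouse 2, and within-class fits the HFD+F+CCl4 mice with at least 20 cells of the class. Shares of cells were compared with exact permutation tests. DESeq2 1.42.0 was an alternative, as was limma 3.58.1 on the log2 of the mean CPM over classes with equal weight (pseudocount of 1 CPM). On counts simulated for the all-cell fit with 200 of 19359 genes changed by a log2 size of 2, the fit recovered 34% with 4 false calls, and on those for the equal-cell fit (14697 genes) 72% with 16. P-values measure only the spread among these mice.

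The comparison, the gene lists and the rules were chosen with earlier results of these data known. Named genes were, among those called, at 50 CPM or more and not overlapping, the 10 largest rises and falls over all cells and the 5 with equal cells, the 4 of highest level in each of 25 function lists, and Jun, Spp1, Rac1, Socs3, Fmnl1 and Myh9; predicted, mitochondrial, receptor segment genes and the 28 genes of the liver-secreted list were left out of the largest changes. The text gives part of these, some genes are not reported here, and genes named beyond the rule were chosen after their values were seen. Of 595 listed symbols 593 were in the matrix. Symbols shared by several gene IDs (108) were kept as separate genes. Promoter windows came from RefSeq, and gene coordinates from the GENCODE annotation of GRCm38.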

Additional observations from a re-analysis of the deposited data

Results flagged for a closer look

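Of the genes named, 3 were called in opposite directions in different cell classes. The difference between the classes was not tested. Ccl6, a myeloid chemokine, had a log2 fold change of 4.25 in cycling cells and fell by 1.11 in granulocytes. In the cycling class the abundant myeloid genes gave 4.21% to 5.63% of UMIs in the WD+F+CCl4 mice and 0.666% and 0.768% in the controls, and the part of that mix in the rise was not tested. Psap, the saposin precursor, had a log2 fold change of 2.35 in the same cycling class and fell by 0.816 in DCs, where 6 of 7 markers of type 1 DCs were lower. Klrd1, the CD94 chain of NK receptors, had a log2 fold change of 1.81 in DCs and fell by 1.41 in B cells. Within B cells 4 of 5 NK cell markers and 8 of 9 T cell markers were also lower, with medians of -2.47 and -2.59. Of all genes tested in B cells 6.15% were lower. The part of that lymphocyte RNA in the fall of Klrd1 was not tested.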

How the results depend on the processing

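Of the 20 alternatives for all cells, most kept the direction and the side of the threshold of the genes named. With the mouse number as a replicate block 1006 genes were called higher and 720 lower over all cells, 648 in T/NK cells and 1280 in cycling cells; the numbers do not pair the mice (correlations of 0.0502 and -0.110 for numbers 1 and 2). Equal weight of classes gave 1059 higher, 10 lysosomal membrane genes, and reversed Ccl6 (-0.24), Klrd1 (0.26), Apoc1 (-1.54), Fmnl1 (-0.43) and Myh9 (-0.17). Library size alone reversed Apoc1 (-0.10), Fmnl1 (-0.085) and Myh9 (-0.011), and leaving out hepatocyte-like cells reversed Apoc1 (-0.70), which ran from -0.18 to 0.39 with 1 mouse left out. Clusters in place of classes in the equal-cell fit gave 664 higher and 565 lower, 12 hydrolases and 9 membrane genes. DESeq2 called 790 genes in B cells and 491 in pDCs. Classes in place of clusters put 62.8% of the genes called higher and 69.7% of those lower over 50% composition. The difference in the share of cycling cells turned to -1.14 points with more than 1000 genes per cell and -0.290 by UMIs, and that of erythroid cells to -0.0677 at a resolution of 0.8. The causes were not tested.

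Leaving out 1 mouse at a time gave 1246 to 1973 genes higher and 977 to 1407 lower over all cells, and 775 to 1297 and 503 to 1266 with equal cells. The calls within classes were 638 to 1316 in B cells, 291 to 1031 in DCs, 473 to 1373 in T/NK cells, 115 to 1480 in cycling cells, 89 to 940 in granulocytes, 228 to 911 in monocytes and 414 to 950 in pDCs. Genes of lipid-laden macrophages were 10 to 16 over all cells, and lysosomal membrane genes 9 to 13 with equal cells. Differences in share ran from -16.35 to 0.0879 points in B cells, -0.505 to 1.22 in cycling cells and -3.13 to 2.93 in endothelial cells. Where 1 control is left, it is assumed to vary like the other groups.

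Control mouse 2 held 5305581 UMIs, the fewest, and with 2 control mice the smallest exact p is 0.1. The shares also depend on the dissociation and dead cell removal. Liver and macrophage RNA in lymphocytes moved with the groups, but the liver share in barcodes with up to 500 genes overlapped between them.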
